A study of Mus musculus with 8 samples.

Results

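Inhibitory receptors and anergy genes are described here through 9 genes, Tox, Nt5e, Btla, Ctla4, Pdcd1, Lag3, Rnf128, Dgka and Dgkz, out of 23337 gene symbols in the deposited tables. They were taken by symbol, each was listed on 1 row of every table, and all 9 reached the mean of 1 TPM that 11786 genes passed. TPM is a length-corrected share of a library's transcripts, set by the authors to a common sum per library. The cells were naive CD4 and CD8 T cells, sorted as CD62L-positive and CD44-low from spleens and mLNs of mice aged 4 weeks. The mice were wild type (WT) or a conditional Trappc1 knockout (KO), in which the Cre recombinase is driven by CD4-cre, active in developing T cells of both lineages. There were 2 libraries for each lineage and genotype, 8 in all. The labels name neither the Cre status of the WT mice nor the mouse behind each library, so a p-value reflects only library-to-library spread, possibly technical.

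T cells carry a set of brakes that limit signalling from the antigen receptor. The receptors CTLA-4, PD-1 (Pdcd1), BTLA and LAG-3 sit at the cell surface, bind ligands on other cells and either recruit phosphatases or compete with costimulation. Inside the cell, the diacylglycerol kinases encoded by Dgka and Dgkz remove a second messenger of receptor signalling, and the ubiquitin ligase GRAIL (Rnf128) marks signalling proteins during anergy, a state of lasting unresponsiveness. TOX is a nuclear factor of T cell development and of exhausted T cells, and CD73 (Nt5e) is a surface enzyme that makes adenosine, which dampens T cells.

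Promoter windows are printed for Nt5e, Btla, Ctla4 and Pdcd1, all under 50 kb. For each of them the KO and WT libraries lay apart in CD4 cells, CD8 cells or both. That also held for Dgkz and Rnf128, whose windows are not printed. Each run is the 250 bases before the gene's start in RefSeq (GRCm38.p6, the assembly also called mm10), 5′ to 3′ on the gene's strand, and capitals mark the NFAT core GGAAA or its complement TTTCC on either strand. The table holds 7 of the 9 genes, and Tox and Lag3 are named only.
Nt5e (chr9:88327359-88327608, plus strand): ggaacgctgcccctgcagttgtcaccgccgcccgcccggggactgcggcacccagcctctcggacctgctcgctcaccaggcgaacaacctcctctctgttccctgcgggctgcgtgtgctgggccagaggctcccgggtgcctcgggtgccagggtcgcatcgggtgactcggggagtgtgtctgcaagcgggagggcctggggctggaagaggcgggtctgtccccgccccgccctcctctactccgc
Btla (chr16:45224087-45224336, plus strand): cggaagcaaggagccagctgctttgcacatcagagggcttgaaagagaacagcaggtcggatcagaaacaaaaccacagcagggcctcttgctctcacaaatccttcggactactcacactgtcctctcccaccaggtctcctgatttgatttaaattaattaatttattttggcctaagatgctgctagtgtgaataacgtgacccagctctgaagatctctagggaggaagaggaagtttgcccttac
Ctla4 (chr1:60908775-60909024, plus strand): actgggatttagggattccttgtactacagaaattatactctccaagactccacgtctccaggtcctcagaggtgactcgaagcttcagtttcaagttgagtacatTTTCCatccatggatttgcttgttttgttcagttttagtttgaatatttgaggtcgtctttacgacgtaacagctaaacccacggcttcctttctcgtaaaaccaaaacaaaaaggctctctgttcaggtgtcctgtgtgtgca
Pdcd1 (chr1:94052554-94052803, minus strand): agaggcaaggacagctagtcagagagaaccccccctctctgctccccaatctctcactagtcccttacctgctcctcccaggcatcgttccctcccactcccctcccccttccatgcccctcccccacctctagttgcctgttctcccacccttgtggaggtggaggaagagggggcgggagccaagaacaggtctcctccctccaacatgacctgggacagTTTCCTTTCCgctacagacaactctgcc

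The start sites of these 4 windows coincide with the gene positions in the deposited tables. The NFAT core was found once in Ctla4 and 2 times in Pdcd1, side by side near the start, and not in Nt5e or Btla. It occurred in 4 of the 7 members' windows against 55.6% of all 32851 promoter windows of that length. The 4 include the window of Rnf128, whose start site lies 47280 bases from the gene's listed start. The AP-1 motif TGANTCA was in 0 of the 7 (6.75% of all windows), and the RUNX motif TGTGGT or its complement ACCACA was in 1, Btla (14.05% of all windows). GC content was 72% in Nt5e, 47.2% in Btla, 42.4% in Ctla4 and 60.4% in Pdcd1, beside a median of 52.4% over all windows. A match describes letters and is not evidence of a bound site.

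Before the results, the libraries were checked. Aligned sequence ranged from 3.03 to 4.01 gigabases. The summed TPM of 9 T cell and naive T cell markers was 10214 to 14719 in 7 libraries and 6414 in the library labelled CD8 WT replicate 2, which also held the highest sums of erythroid (89800 TPM), myeloid (24019 TPM), B cell (17456 TPM) and dendritic cell markers (35.1 TPM). Cd4 was at 543 to 764 TPM in CD4 libraries and Cd8a at 163 to 548 TPM in CD8 libraries. Trappc1 itself ranged from 55.0 to 78.7 TPM in CD4 WT, 30.5 to 32.8 TPM in CD4 KO, 40.3 to 81.2 TPM in CD8 WT and 45.6 to 56.9 TPM in CD8 KO, so the CD8 genotypes overlapped. Which part of the gene is deleted is not stated in the labels, and its summed TPM therefore checks the labels only weakly. The CD8 difference of each of the 9 genes is therefore given with and without CD8 WT replicate 2. The CD4 KO libraries also differed from CD4 WT in such markers, with myeloid sums of 1281 to 1975 TPM against 80.3 to 234 TPM. Fewer cells of a type and less RNA per cell cannot be told apart in these bulk samples.

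**Figure D1:**
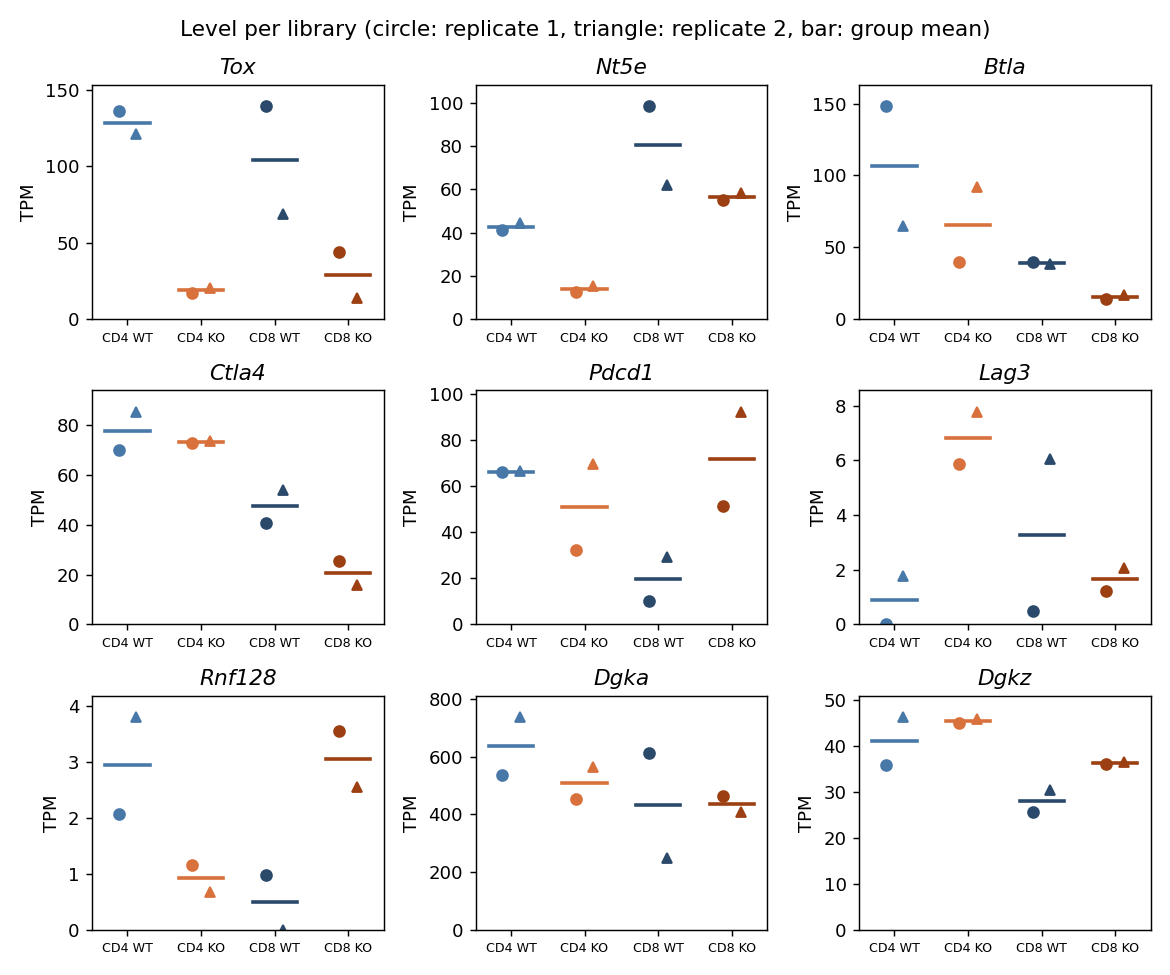
TPM of the 9 genes in each library (vertical axes from 0, linear, one scale per gene), with circles for replicate 1, triangles for replicate 2 and bars for group means. Tox is low in all 4 KO libraries, at 43.7 TPM or less, and stands at 69.0 TPM or more in the 4 WT libraries.

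Tox fell in the knockout when both lineages were considered together. It encodes a nuclear HMG-box protein required for CD4 T cell development. Its level was 136 and 121 TPM in the CD4 WT libraries against 17.3 and 20.4 TPM in CD4 KO. The CD8 WT libraries had 139 and 69.0 TPM, and the CD8 KO libraries 43.7 and 13.6 TPM. The 4 KO libraries were all below the 4 WT libraries, a placement seen for 7.69% of the genes tested, while 0 of the 9 genes had all KO libraries above (5.57% of genes). The averaged KO effect was -2.33 ± 0.38 on the log2(TPM + 1) scale (SE), with adjusted p = 0.0153 by limma, and with the trend against genomic span removed it was -0.998 (adjusted p = 0.186).

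Within each lineage the difference of Tox did not pass. It was -2.71 ± 0.53 in CD4 cells (limma, adjusted p = 0.0599) and -1.96 ± 0.53 in CD8 cells (limma, adjusted p = 0.173). Without CD8 WT replicate 2, which leaves 1 CD8 WT library assumed to vary like the others, the CD8 difference was -2.46 and the averaged effect -2.58. The CD8 difference was -1.15 without CD8 KO replicate 2. The averaged effect did not pass without either library of CD4 WT, without either of CD4 KO, or without CD8 KO replicate 2, at adjusted p = 0.0749 to 0.124, nor with no filter on low genes (0.0785). Leaving out either CD8 WT library left the CD4 difference at -2.71, whose estimate uses no CD8 library, and lowered its standard error. Because the standard error pools the spread of all 4 groups, whether Tox passes in CD4 cells depends in part on the CD8 WT libraries. The difference between the lineages' effects was 0.75 ± 0.75 (limma, adjusted p = 0.793).

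Tox lies on chromosome 4 (6687386 to 6990723, minus strand, mm10) and spans 303338 bases, the longest of the 9 genes. Its longest GENCODE transcript has 9 exons and 3961 bases, with 1 intron of 147963 bases. Long genes were lower in the KO as a class. Among 311 tested genes spanning 200 kb or more, 93.6% were lower in the CD4 KO with a median of -1.56, and 93.2% were lower in the CD8 KO with a median of -1.28. In that class 8.04% of the genes were as low as Tox or lower in CD4 cells and 19.6% in CD8 cells. The antisense gene Gm11802 covers 1037 exonic bases of Tox, and no source states whether counting used strand, so reads of both cannot be told apart.

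**Figure D2:**
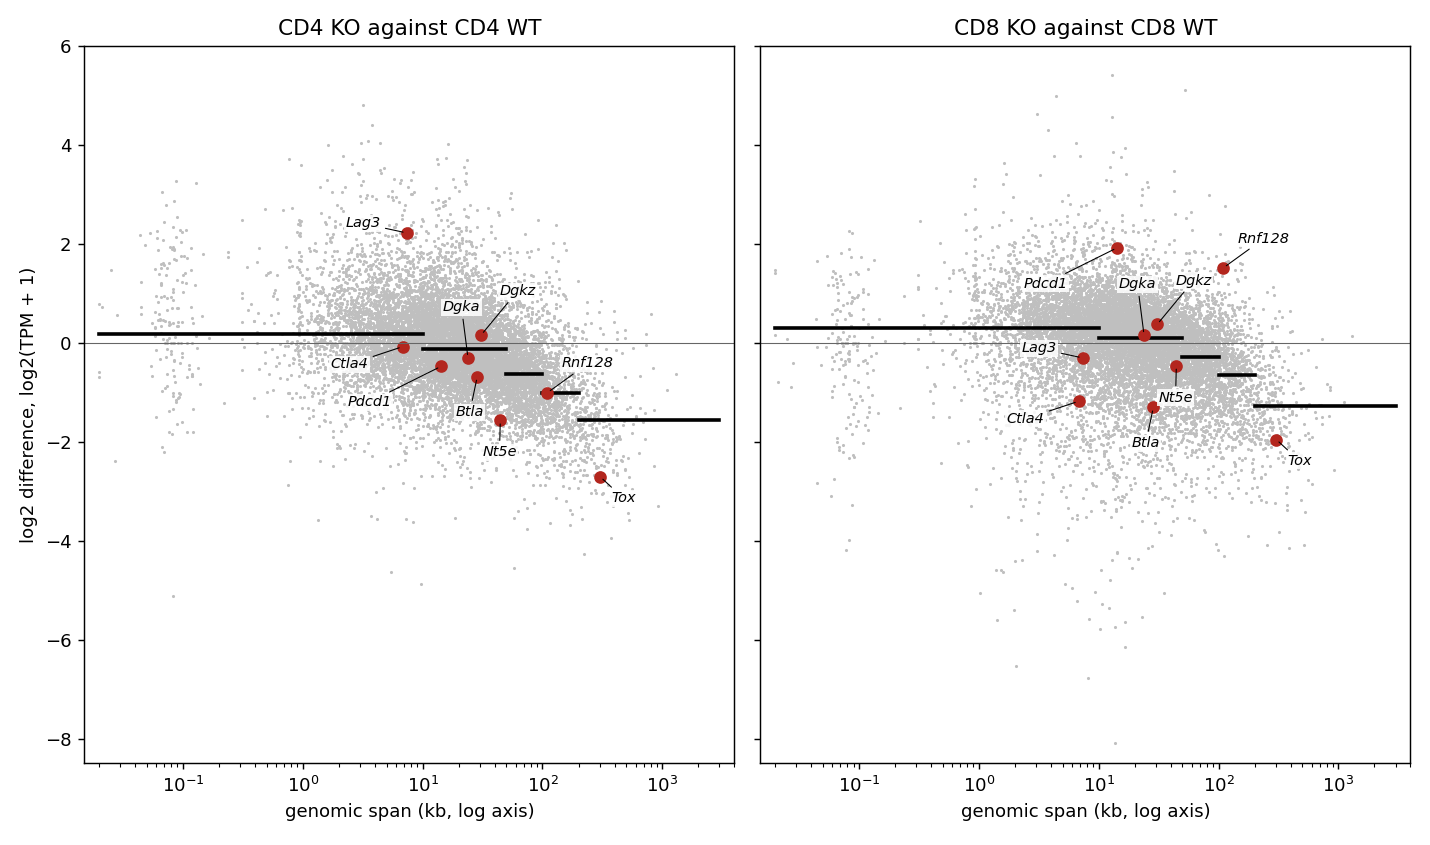
Log2 difference of each tested gene (grey) against its genomic span in kilobases (log axis), KO against WT in CD4 (left) and CD8 cells (right), with the 9 genes in red and black bars at the median of each span class. The class medians step down from 0.17 to -1.56 in CD4 and from 0.30 to -1.28 in CD8 cells, and Tox lies below the bar of the longest class.

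Nt5e was lower in the CD4 KO but did not pass the test. It encodes CD73, which converts extracellular AMP to adenosine. CD4 WT libraries read 41.0 and 44.4 TPM, and CD4 KO libraries 12.4 and 15.1 TPM. CD8 WT libraries read 98.5 and 62.2 TPM, and CD8 KO libraries 54.9 and 58.3 TPM. Both KO libraries were below both WT libraries in each lineage, with means of 42.7 ± 2.41 and 13.8 ± 1.91 TPM in CD4 WT and KO (SD, n = 2). The log2 difference was -1.57 ± 0.36 in CD4 (limma, adjusted p = 0.0826), -0.46 ± 0.36 in CD8 (adjusted p = 0.554) and -1.01 ± 0.25 averaged (adjusted p = 0.0553). Leaving out either CD8 WT library left the CD4 difference at -1.57, whose estimate uses no CD8 library, and lowered its standard error. That error pools the spread of all 4 groups. Whether Nt5e passes in CD4 cells therefore depends in part on the CD8 WT libraries. The averaged effect was -1.18 without CD8 WT replicate 2 and -0.85 without CD8 WT replicate 1. The CD8 difference was -0.79 without replicate 2 and -0.13 without replicate 1.

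With a span of 44481 bases (chromosome 9, 88327609 to 88372089, plus strand), Nt5e belongs to a class of 5614 genes of 10 to 50 kb whose median was -0.12 in CD4 and 0.10 in CD8 cells. Its CD4 difference was 1.45 below the class median on the log2 scale. With the span trend removed it was -1.15 in CD4 (limma, adjusted p = 0.172) and -0.75 averaged (adjusted p = 0.114). The difference between lineages in the KO effect, 1.11 ± 0.51, did not pass (limma, adjusted p = 0.701).

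Btla was lower in the CD8 KO without passing. It encodes an inhibitory receptor for HVEM (Tnfrsf14) that B cells also carry. The CD8 WT pair had 39.8 and 38.6 TPM and the CD8 KO pair 13.6 and 17.0 TPM. The CD4 WT pair had 148 and 64.4 TPM and the CD4 KO pair 39.6 and 91.9 TPM. The groups were apart in CD8 cells and overlapped in CD4 cells, where replicates of a group lay far apart. The log2 difference was -1.31 ± 0.50 in CD8 (limma, adjusted p = 0.272), -0.69 ± 0.50 in CD4 (adjusted p = 0.521) and -0.997 ± 0.35 averaged (adjusted p = 0.135).

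Leaving out CD8 WT replicate 2 gave a CD8 difference of -1.33 for Btla (limma, adjusted p = 0.341). The summed TPM of 8 B cell markers ranged from 9027 to 11676 in CD4 WT, 5457 to 6051 in CD4 KO and 1628 to 2165 in CD8 KO, and was 1369 and 17456 in CD8 WT. Most of the gap between the CD8 WT libraries was in Cd74 (523 and 11372 TPM) and H2-Aa (432 and 5199 TPM), which other antigen-presenting cells share, while Cd79a was at 118 and 336 TPM and Cd79b at 218 and 145 TPM. The part of B cell transcripts in the Btla differences was not tested. Btla spans 28559 bases on chromosome 16 (45224337 to 45252895, plus strand), and its CD8 difference was 1.41 below its span class median on the log2 scale.

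Ctla4 differed little between genotypes in CD4 cells and was lower in the CD8 KO without passing. It encodes the receptor that competes with CD28 for CD80 and CD86. In the CD4 WT libraries Ctla4 reached 70.0 and 85.3 TPM, and in CD4 KO 72.6 and 73.6 TPM, within the WT range. In the CD8 WT libraries it reached 40.8 and 54.0 TPM, and in CD8 KO 25.6 and 15.8 TPM, with the groups apart. The log2 difference was -0.08 ± 0.36 in CD4 (limma, adjusted p = 0.938), a value of positive sign with median-of-ratios scaling, with FPKM and without CD4 WT replicate 2, and -1.18 ± 0.36 in CD8 (adjusted p = 0.202).

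Leaving out CD8 WT replicate 2 gave a CD8 difference of -0.98 for Ctla4, and leaving out CD8 WT replicate 1 gave -1.38. The gene is short, 6806 bases on chromosome 1 (60909025 to 60915830, plus strand), and the 3623 genes under 10 kb had a median of 0.30 in CD8 cells. The difference between lineages in the KO effect was -1.10 ± 0.51 (limma, adjusted p = 0.701). Regulatory T cells also express Ctla4. Their factor Foxp3 stood at 6.29 to 14.4 TPM in the CD4 libraries and at 0.145 TPM or less in the CD8 libraries. The sum of 6 regulatory T cell markers, mostly Tnfrsf18, was 758 to 780 TPM in CD4 WT and 630 to 641 TPM in CD4 KO. It was 177 to 410 TPM in CD8 WT and 449 to 473 TPM in CD8 KO. In the CD8 KO libraries Tnfrsf18 alone was at 447 and 427 TPM. The part of regulatory T cells in the level of Ctla4 was not tested.

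Pdcd1 was higher in the CD8 KO, again without passing. It encodes PD-1, which recruits the phosphatase SHP-2. Levels were 10.3 and 29.3 TPM in CD8 WT, and 51.6 and 92.5 TPM in CD8 KO. For CD4 cells they were 66.2 and 66.7 TPM with the WT genotype, and 32.3 and 69.6 TPM with KO. The KO libraries were the higher ones in CD8 cells, and the CD4 groups overlapped. The log2 difference was 1.92 ± 0.55 in CD8 (limma, adjusted p = 0.183) and -0.48 ± 0.55 in CD4 (adjusted p = 0.695).

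The CD8 difference of Pdcd1 was 2.63 once CD8 WT replicate 2 was left out (limma, adjusted p = 0.0884) and 1.21 with replicate 1 left out in its place (adjusted p = 0.153). The difference between lineages in the KO effect was 2.40 ± 0.77 and did not pass (adjusted p = 0.701), although its unadjusted p was the lowest of the 9 genes, 0.0115. The CD8 KO mean was 72.0 ± 28.9 TPM (SD, n = 2), and its libraries lay on either side of both CD4 WT libraries. Activation and memory markers (9 genes, mostly Cd69) summed to 536 to 841 TPM in CD8 WT and 851 to 871 TPM in CD8 KO, and their part in the Pdcd1 values was not tested. Pdcd1 spans 14249 bases on chromosome 1 (94038305 to 94052553, minus strand), and its CD8 difference was 1.82 above its span class median on the log2 scale.

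**Figure D3:**
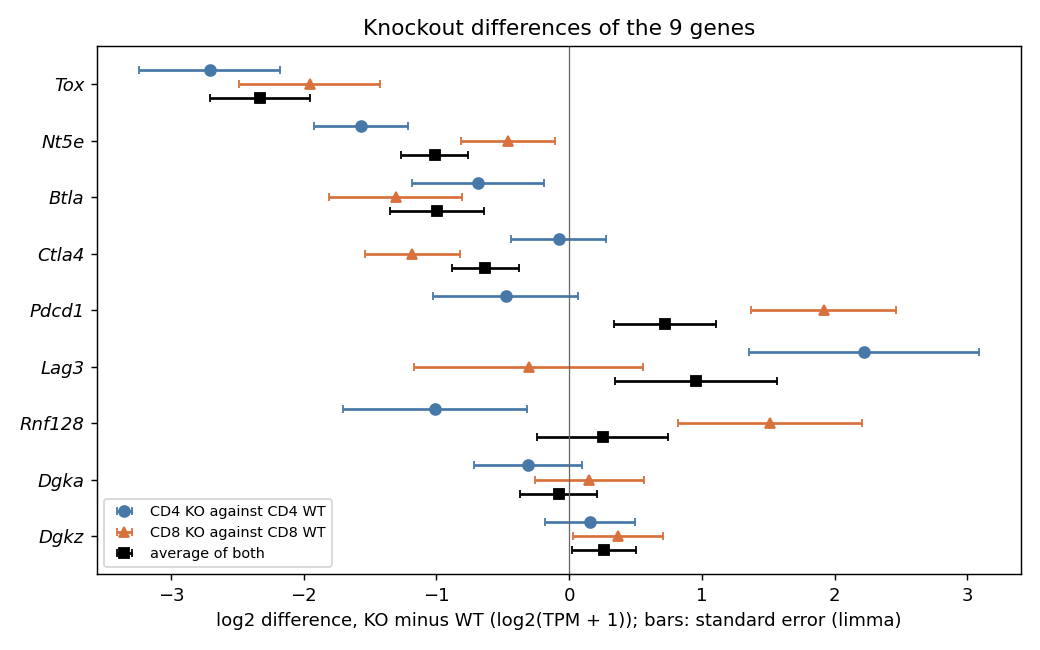
Log2 difference between KO and WT for the 9 genes on the log2(TPM + 1) scale, with circles for CD4, triangles for CD8, squares for the average and bars for the standard error from limma. Tox lies at -2.71, -1.96 and -2.33, and Pdcd1, Lag3, Rnf128 and Dgka have CD4 and CD8 values on opposite sides of 0.

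Lag3 was listed at low levels in every group. It encodes a receptor for MHC class II that is carried by activated T cells and by some dendritic cells. It was at 0 and 1.78 TPM in CD4 WT and at 5.87 and 7.79 TPM in CD4 KO. The CD8 WT libraries listed it at 0.491 and 6.04 TPM, the CD8 KO libraries at 1.23 and 2.08 TPM. The CD4 groups were apart with a log2 difference of 2.22 ± 0.86 (limma, adjusted p = 0.235), and the CD8 groups overlapped (-0.31 ± 0.86, adjusted p = 0.887). The CD8 difference was 0.81 without CD8 WT replicate 2. That library had the highest sums of dendritic cell (35.1 TPM) and NK cell markers (18.0 TPM). The part of such cells in its Lag3 value was not tested.

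Coverage of Lag3 reached at most 10.01 reads per base, and in 3 libraries was 2.02 or less. The activation and memory markers summed to 701 to 766 TPM in CD4 WT and to 1093 to 1124 TPM in CD4 KO. Sums of 4 NK cell markers were 2.12 to 7.29 TPM in CD4 WT and 12.2 to 14.3 TPM in CD4 KO, and the myeloid sums differed as given above. Their part in the Lag3 values was not tested. Lag3 spans 7347 bases on chromosome 6 (124904359 to 124911705, minus strand).

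Rnf128 was near the lower limit of these tables. It encodes GRAIL, an E3 ubiquitin ligase of anergic T cells. It was at 2.07 and 3.80 TPM in CD4 WT and at 1.16 and 0.679 TPM in CD4 KO. The CD8 WT libraries listed it at 0.980 and 0 TPM, the CD8 KO libraries at 3.54 and 2.56 TPM. Groups were apart in opposite directions, with log2 differences of -1.01 ± 0.70 in CD4 (limma, adjusted p = 0.496) and 1.51 ± 0.70 in CD8 cells (adjusted p = 0.342). Its coverage never exceeded 0.468 reads per base and was 7.94% to 8.02% of what its FPKM implies in the libraries above 0, so these levels are uncertain.

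The span of Rnf128 is 109806 bases (chromosome X, 139563340 to 139673145, plus strand). Its CD4 difference equalled the median of the 736 genes of 100 to 200 kb, -1.01, and its CD8 difference was 2.16 above the class median of -0.65. The difference between lineages, 2.53 ± 0.98, did not pass (limma, adjusted p = 0.701). Leaving out CD8 WT replicate 2, the library at 0, the CD8 difference was 1.02 (adjusted p = 0.476).

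The diacylglycerol kinases showed small differences. Dgka, which encodes the alpha kinase, was the highest of the 9 genes on the TPM scale, at a mean of 503 TPM, above 97.6% of the genes tested. The CD4 WT libraries had 535 and 737 TPM and the CD4 KO libraries 453 and 565 TPM. Those of CD8 WT had 614 and 250 TPM and those of CD8 KO 465 and 408 TPM. Genotypes overlapped in both lineages, with log2 differences of -0.31 ± 0.41 in CD4 (limma, adjusted p = 0.744) and 0.15 ± 0.41 in CD8 cells (adjusted p = 0.880). The low value of 250 TPM came from CD8 WT replicate 2, whose removal gave -0.49 (limma, adjusted p = 0.395).

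Dgkz, which encodes the zeta kinase that restrains Ras signalling after receptor engagement, had 35.9 and 46.3 TPM in the CD4 WT libraries and 45.1 and 45.9 TPM in those of CD4 KO. The CD8 WT libraries had 25.6 and 30.4 TPM and the CD8 KO libraries 36.1 and 36.6 TPM. The CD8 groups were apart, yet the differences were 0.15 ± 0.34 in CD4 (limma, adjusted p = 0.855) and 0.37 ± 0.34 in CD8 cells (adjusted p = 0.619), or 0.49 in CD8 without CD8 WT replicate 2 (adjusted p = 0.491). Of the 9 genes Dgkz had the smallest standard error in CD4 and CD8 cells, 0.34, and a value of 0 lies within 2 standard errors of both differences. The coverage of Dgkz was 79.9% to 81.0% of what its FPKM implies. Its span is 30742 bases (chromosome 2, 91932822 to 91963563, minus strand) and that of Dgka 23921 bases (chromosome 10, 128720136 to 128744056, minus strand). The opposite-strand gene Pmel, at 9.89 to 33.9 TPM, covers 105 exonic bases of Dgka, and Gm9821 covers 222 of Dgkz.

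By count, 0 of the 9 genes passed limma in CD4 cells, where 0.713% of all genes did (0.526% lower and 0.187% higher), and 3 had an unadjusted p under 0.05 (Tox, Nt5e and Lag3; 16.7% of all genes). In CD8 cells 0 passed against 0.297% of all genes (0.187% lower and 0.11% higher), and 4 had an unadjusted p under 0.05 (Tox, Btla, Ctla4 and Pdcd1; 15.1% of all genes). For the averaged effect, made from the same libraries, 1 passed (Tox) against 4.12% of all genes, and 4 had an unadjusted p under 0.05 (Tox, Nt5e, Btla and Ctla4; 22.6%). For the difference between the lineages' effects 0 passed, as for all genes (0%), and 2 had an unadjusted p under 0.05 (Pdcd1 and Rnf128; 6.95%). 

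The placement of libraries was counted too. In CD4 cells the KO libraries lay below the WT libraries for 3 of 9 (36.5% of all genes) and above them for 1 (21.7%). In CD8 cells they lay below for 4 of 9 (19.1% of all genes) and above for 3 (23%). The median log2 difference of the 9 was -0.48 in CD4 cells, beside -0.16 over all genes, and -0.31 in CD8 cells, beside 0.05. The CD4 median over all genes moved to 0.03 with median-of-ratios scaling.

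Between CD8 WT and CD4 WT cells 0 of 9 passed limma (0.195% of all genes, 0.0848% lower and 0.11% higher). In CD8 WT 7 of 9 genes had the lower value, as did 67.0% of all genes, whose median log2 difference was -0.26 and became 0.02 with median-of-ratios scaling. An unadjusted p under 0.05 was found for 3, against 8.67% of all genes. The log2 difference was -1.86 ± 0.55 for Pdcd1 (limma, adjusted p = 0.377), -1.30 ± 0.50 for Btla (adjusted p = 0.537) and 0.86 ± 0.36 for Nt5e (adjusted p = 0.559). CD8 WT libraries lay below CD4 WT libraries for 5 of 9, namely Btla, Ctla4, Pdcd1, Rnf128 and Dgkz (24.8% of all genes), and above for 1, Nt5e (9.53%). Leaving out CD8 WT replicate 2 the differences were -2.57 for Pdcd1, -1.28 for Btla and 1.19 for Nt5e (adjusted p = 0.122, 0.716 and 0.268). Dgka was at -1.33 without CD8 WT replicate 1 and at -0.03 without CD8 WT replicate 2.

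The order of group means differed from gene to gene. Tox had both WT groups above both KO groups, and the neighbours within each genotype overlapped. Nt5e ran from CD8 WT through CD8 KO and CD4 WT to CD4 KO, with no overlap between neighbours. Btla and Ctla4 both ran from CD4 WT through CD4 KO and CD8 WT to CD8 KO, and the steps from CD8 WT to CD8 KO were apart in both. Pdcd1 was lowest in CD8 WT, apart from the next group, and its other groups overlapped.

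Other genes of the same pathways were counted from 7 lists holding 82 genes, of which 73 were tested. The highest of them on the TPM scale were Ptpn22, at a mean of 629 TPM, Cd6 at 350 TPM and Adk at 296 TPM. For the averaged effect 4 fell (2.76% of all genes were called lower) and 1 rose (1.36% called higher). An unadjusted p under 0.05 was found for 22 of the 73 (22.6% of all genes). In CD4 cells 1 fell (0.526% called lower) and 0 rose, with 20 at an unadjusted p under 0.05 (16.7% of all genes). In CD8 cells 0 passed limma (0.297% of all genes), with 14 at an unadjusted p under 0.05 (15.1% of all genes). The median of the 73 genes was -0.44 in CD4 and -0.30 in CD8 cells, beside -0.16 and 0.05 over all genes.

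Around adenosine, 2 of 7 genes fell in the averaged effect (2.76% of all genes were called lower). Adk, the kinase that returns adenosine to AMP inside the cell, had 759 and 613 TPM in the CD4 WT libraries, 73.9 and 85.6 TPM in CD4 KO, 424 and 180 TPM in CD8 WT and 126 and 103 TPM in CD8 KO. Its difference was -3.08 ± 0.39 in CD4 cells (limma, adjusted p = 0.0290) and -2.18 ± 0.28 averaged (adjusted p = 0.00741), and neither passed with the span trend removed (-1.38 in CD4, adjusted p = 0.172, and -0.68 averaged, adjusted p = 0.196). Adk spans 395996 bases. Slc29a1, the equilibrative nucleoside transporter that carries adenosine, had 176 and 139 TPM in the CD4 WT libraries, 59.9 and 85.7 TPM in CD4 KO, 215 and 175 TPM in CD8 WT and 84.9 and 91.1 TPM in CD8 KO. All 4 KO libraries were below the WT libraries, as for Adk above and Cblb below, and for 7.69% of the genes tested. The averaged difference of Slc29a1 was -1.12 ± 0.22 (limma, adjusted p = 0.0270). Slc29a1 spans 14404 bases and passed with the span trend removed (-1.24, limma, adjusted p = 0.0331). Without CD8 WT replicate 2 its averaged difference was -1.20. The adenosine receptor gene Adora2a had an averaged difference of 0.22 (adjusted p = 0.648).

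Among 17 tested anergy ligases and transcription factors, 2 fell in the averaged effect (2.76% of all genes were called lower). Cblb, an E3 ligase that raises the threshold for T cell activation, had 79.9 and 159 TPM in the CD4 WT libraries, 24.9 and 38.1 TPM in CD4 KO, 55.5 and 74.9 TPM in CD8 WT and 40.6 and 25.3 TPM in CD8 KO (-1.41 ± 0.31, limma, adjusted p = 0.0385). Ikzf1, the gene of the transcription factor Ikaros that silences Il2 in anergic cells, had 213 and 231 TPM in the CD4 WT libraries, 101 and 34.4 TPM in CD4 KO, 191 and 95.0 TPM in CD8 WT and 35.9 and 34.9 TPM in CD8 KO (-1.90 ± 0.35, adjusted p = 0.0242). Without the span trend they did not pass, at -0.40 for Cblb (176498 bases, adjusted p = 0.497) and -1.29 for Ikzf1 (86714 bases, adjusted p = 0.120). With CD8 WT replicate 2 left out the averaged differences were -1.31 for Cblb and -2.15 for Ikzf1.

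Of 15 tested further inhibitory receptors 1 rose in the averaged effect (1.36% of all genes were called higher). Vsir, which encodes VISTA, had 27.6 and 98.1 TPM in the CD4 WT libraries, 109 and 92.1 TPM in CD4 KO, 39.9 and 31.2 TPM in CD8 WT and 183 and 147 TPM in CD8 KO. The CD8 groups were far apart and the CD4 groups overlapped, and the averaged difference was 1.56 ± 0.36 (limma, adjusted p = 0.0455). It missed the threshold with CD8 WT replicate 2 left out (1.47, adjusted p = 0.0620) and with the span trend removed (1.60, adjusted p = 0.0629). Cd6 and Cd5, the highest of this list with Cd96, had averaged differences of 0.84 and 0.15 (adjusted p = 0.0696 and 0.770). The averaged calls of Cblb, Ikzf1 and Slc29a1 were each lost when any CD4 library or any CD8 KO library was left out, that of Adk when any CD4 library or CD8 KO replicate 2 was, and that of Vsir in 6 of the 8 cases (all but CD4 WT replicate 2 and CD8 WT replicate 1). In CD4 cells Adk did not pass without any 1 of the CD4 or CD8 KO libraries (adjusted p = 0.0943 to 0.375).

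In the remaining lists 0 genes passed limma for the averaged effect. These were 8 tested ligand genes (2 at an unadjusted p under 0.05), 7 genes of diacylglycerol signalling (3), 18 downstream phosphatases and adaptors (5) and Tox4 of the TOX family (0). Over all genes 4.12% passed and 22.6% had an unadjusted p under 0.05. Tox4, which spans 16364 bases, averaged 162 TPM in the CD4 WT libraries and 198 TPM in those of CD4 KO, with an averaged difference of 0.32 (adjusted p = 0.368), while Tox2 and Tox3 were under the filter. Of the diacylglycerol genes 6 of 7 had a lower value in the CD4 KO (58.0% of all genes) and 7 of 7 in the CD8 KO (47.3% of all genes). Dgkd, Rasgrp1, Dgkh and Prkcq span 62885 to 155481 bases, and Dgke, Dgkq and Plcg1 13726 to 44451 bases. Among all genes of 50 to 100 kb, 82.6% were lower in the CD4 KO and 66.4% in the CD8 KO. For 100 to 200 kb the shares were 88.2% and 79.9%. The highest diacylglycerol gene on the TPM scale was Prkcq, which spans 128845 bases (-1.20 in CD4 and -0.51 in CD8 cells, limma, adjusted p = 0.231 and 0.611).

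**Figure D4:**
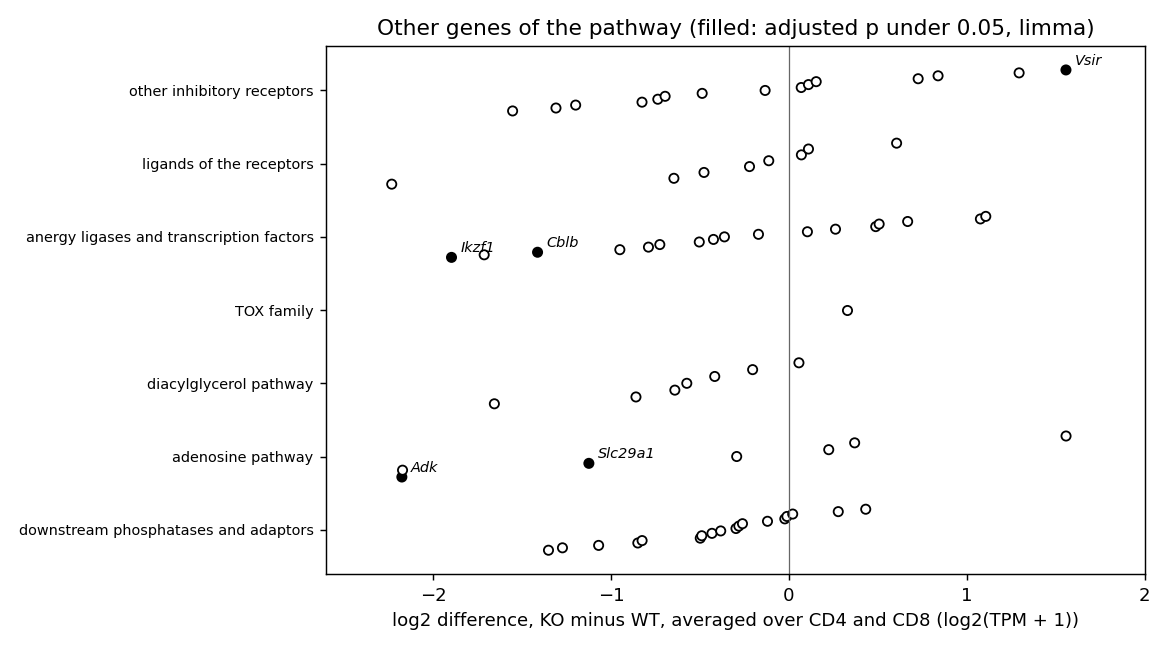
Averaged KO effect (log2(TPM + 1), horizontal axis) of the 73 tested genes in the 7 other lists, 1 circle per gene, sorted by value within each list, and filled where limma's adjusted p was under 0.05. The filled circles are Adk, Ikzf1, Cblb and Slc29a1 at negative values and Vsir at 1.56.

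For each member at a mean of 10 TPM or more, the genes with the most similar pattern over the 8 libraries were listed by Pearson's r of log2(TPM + 1). The closest were Mll5 (0.987) and Fam172a (0.987) for Tox, Lpxn (0.985) and Ifi27l1 (0.966) for Nt5e, and 4930471M23Rik (0.951) and Idi1 (0.949) for Btla. They were Pck2 (0.963) and Slc9a7 (0.949) for Ctla4, Fam102b (0.952) and Gigyf1 (0.938) for Pdcd1, Il16 (0.994) and Pgpep1l (0.981) for Dgka, and Sec31b (0.988) and Wasf2 (0.969) for Dgkz. The points share libraries and their composition, and the genes were picked as the highest of 11786, so the values are descriptions. Fam172a spans 457551 bases and averaged 78.4 TPM in the WT and 10.8 TPM in the KO libraries.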

How the data were processed

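RNA of the sorted cells was sequenced as 8 libraries, prepared with a SMARTER kit per the labels' protocols. Reads were aligned with HISAT to mm10 per the submitters' processing notes. The program behind the gene tables is not stated. The deposited tables give TPM and FPKM, length-corrected values scaled by the authors, and read coverage per base, per the file headers. No counts are held, so no counting interval is given.

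TPM was summed per symbol. The 11786 genes averaging 1 TPM or more were fitted as log2(TPM + 1) in limma 3.58.1 (R 4.3.3), using its trend option, a mean for each of 4 groups and 1 shared spread (4 residual and 5.68 prior degrees of freedom). Adjusted p-values are Benjamini-Hochberg values over all genes tested, called at 0.05. Aligned bases were read from the ratio of coverage to FPKM. Log2 differences understate changes of weakly expressed genes. The span of a gene is its end minus its start plus 1. Only the limma step was run on simulated data, and only its CD4 comparison was scored. The simulated libraries all had the same spread and no span trend, unlike the real ones.

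The members and lists were chosen with earlier results of these data known. Named genes were the 9 members, every called gene of the other lists and up to 3 of the highest in each list. Of the 82 list genes, 3 were matched through older symbols. Markers of T cells, lineages and other cell types were summed as TPM. Alternatives changed the pseudocount, filter, scaling, unit, weights, groups fitted, replicate block, span trend, symbol rows and libraries. Exons came from GENCODE M21 (GRCm38).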

Additional observations from a re-analysis of the deposited data

How the results depend on the processing

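Directions and calls of the 9 genes were recomputed under 17 to 19 alternatives per comparison. Lag3 and Rnf128 are limited by their low coverage.
The number of genes called in CD4 cells was 84 and became 0 with no filter, 141 with median-of-ratios scaling, 1260 with library weights, 243 with the compared groups only, 29 with the replicate block and 20 with the span trend removed (14 higher and 6 lower, against 22 and 62). In CD8 cells it was 35 and became 0 with no filter, 0 with library weights and 0 with the compared groups only. For the averaged effect it was 485 (160 higher, 325 lower) and became 26 with no filter, 755 with median-of-ratios scaling (340 higher, 415 lower) and 140 with the span trend removed (84 higher, 56 lower). For CD8 WT against CD4 WT it was 23 and became 1 with no filter, 15 with library weights and 0 with the compared groups only. Leaving out 1 library gave 0 to 768 calls in CD4, 0 to 1842 in CD8, 0 to 1798 averaged, 0 to 1148 for the difference between lineages and 0 to 1629 for CD8 WT against CD4 WT, and the highest count of each came without a CD8 WT library (replicate 2 for CD4, replicate 1 for the others).
Of the 9 genes, 0 were called in CD4 cells, but 1 with a filter at a mean of 5 TPM (Tox), 2 with library weights (Tox and Nt5e) and 1 with the compared groups only (Tox). For the averaged effect 1 was called, but 0 with no filter and with the span trend removed, and 2 (Tox and Nt5e) with a filter at 5 TPM, median-of-ratios scaling and FPKM. Leaving out 1 library gave 0 to 2 in CD4, 0 to 1 in CD8, 0 to 2 averaged, 0 to 0 for the difference between lineages and 0 to 1 for CD8 WT against CD4 WT.
Signs turned in these cases, and the cause was not tested. Ctla4 in CD4 cells was 0.137 with median-of-ratios scaling and 0.0103 with FPKM, and the difference between lineages of Dgkz was -0.0977 with median-of-ratios scaling and -0.0491 with the span trend removed. Leaving out 1 library gave, in CD4 cells, -0.220 to 0.0621 for Ctla4, -1.02 to 0.0651 for Pdcd1 and -0.0251 to 0.335 for Dgkz, and in CD8 cells -1.43 to 0.813 for Lag3 and -0.494 to 0.800 for Dgka. It gave -0.402 to 0.245 for the averaged effect of Dgka, -0.0549 to 1.56 for Tox and -0.184 to 1.11 for Dgka in the difference between lineages, and -0.886 to 0.118 for Tox and -0.161 to 2.08 for Lag3 in CD8 WT against CD4 WT.
The labels do not state whether same-numbered libraries are pairs. Deviations of same-numbered KO and WT libraries correlated at 0.0465 in CD4 and 0.0942 in CD8 cells. These values do not settle the pairing, because differences in cell content between libraries, as in CD8 WT replicate 2, also enter the deviations. The replicate block gave 29 calls in CD4 cells against 84. Tox kept its averaged call with it (adjusted p = 0.0126, limma), and among the 9 genes and the called genes of the other lists only the averaged call of Vsir was lost (adjusted p = 0.0529, against 0.0455).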
